A study of Mus musculus with 28 samples.

Results

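The genes described here are 4 interleukins, Il24, Il33, Il17b and Il6, followed through every group of a mouse mammary gland study. They are 4 of the 17097 genes that the probe annotation names by a single symbol. Each member had 1 probe set on the array. The annotation gives gene identifier 93672 for Il24, 77125 for Il33, 56069 for Il17b and 16193 for Il6. The genes were chosen by their measured differences on these same arrays. Earlier results of these data named Il24 for its difference between K8PIK luminal and YFP luminal cells. They named Il33 for that between K8PIK basal and YFP basal cells, and Il17b for that between K5PIK luminal and YFP luminal cells. Each gene is taken to have been selected on that difference. Those differences, and every difference that shares a group with them, are given as values with no test. Tests in the same fit share 1 estimate of the spread per gene with them, so they are not wholly free of the choice. The comparison that picked Il6 is not known, so Il6 has no test anywhere.

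Interleukins are secreted proteins that carry signals between cells. Il24 belongs to the IL-20 branch of the IL-10 family and signals through receptors built from Il20ra or Il22ra1 with Il20rb, which activate STAT3 in epithelia. Il33 is an IL-1 family protein that is stored in the nucleus of barrier epithelium and endothelium, is released on injury, and is read by Il1rl1 with Il1rap on immune cells. Il17b is an IL-17 family ligand of Il17rb, which pairs with Il17ra. Il6 binds Il6ra and Il6st, the shared gp130 chain, and activates JAK kinases and STAT3. The mammary epithelium has an inner luminal layer, from which milk is made, and an outer contractile basal (myoepithelial) layer.

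The study used female mice in which tamoxifen switched on a Cre driver, K8CREERT2 for luminal or K5CREERT2 for basal cells, given as 3 injections of 5 mg at an age of 4 to 5 weeks. The K8PIK tumours (n = 7) and K5PIK tumours (n = 3) arose in K8CREERT2 and K5CREERT2 mice with PIK3CA-H1047R, an activating mutant of the PI3-kinase catalytic subunit, and RosaYFP, a fluorescent lineage label. The K8PIKp53 tumours (n = 2) carried K8CREERT2, PIK3CA-H1047R, RosaYFP and p53flox/flox. The YFP+ oncogene-carrying cells (n = 2 each) were K8PIK luminal and K8PIK basal cells at 8 weeks after tamoxifen, and K5PIK luminal and K5PIK basal cells at 10 months. The YFP+ normal cells (n = 2 each) were luminal cells of K8CREERT2/RosaYFP mice and basal cells of K5CREERT2/RosaYFP mice, at 8 weeks and at 10 months. K8PIK basal and K5PIK luminal cells therefore lie outside the layer in which their Cre was active, and they differ from the YFP cells of the same gate both by PIK3CA-H1047R and by the Cre line used. K8PIK luminal and basal cells were taken only at 8 weeks, and K5PIK luminal and basal cells only at 10 months. Where these cells are set side by side, Cre line and time cannot be told apart. All cells were isolated by flow sorting after enzymatic digestion of the gland. The labels give no age for the tumours and do not say whether replicates were separate animals, so p-values measure only the spread between these samples.

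The values are deposited log2 expression values, and a difference of 1 is a 2-fold change. The level of a probe set can be compared between arrays but not with that of another probe set. No detection call was used here. A value under the 40th percentile of its array (3.89 to 3.99) is called dim. Il24 and Il17b were above that limit on all 28 arrays, Il33 on 18 and Il6 on 13. The sort gates were borne out by their markers: the mean of 9 basal markers (Krt5, Krt14, Acta2 and others) was 9.52 to 10.05 on the 8 basal arrays and 5.70 to 7.29 on the 8 luminal arrays, and that of 9 luminal markers (Krt8, Elf5, Foxa1 and others) was 7.08 to 8.46 in basal and 9.62 to 10.16 in luminal cells. Endothelial markers were also measured in the basal gate, with a mean over 12 genes of 6.07 to 7.36 on the 4 YFP basal arrays against 4.91 to 5.80 on the 4 YFP luminal arrays. The mean over 3 pericyte genes was likewise 5.75 to 6.86 on the YFP basal arrays, against 4.62 to 5.51 on the YFP luminal arrays. In such bulk samples, fewer cells of a type and less RNA per cell cannot be told apart.

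**Figure D1:**
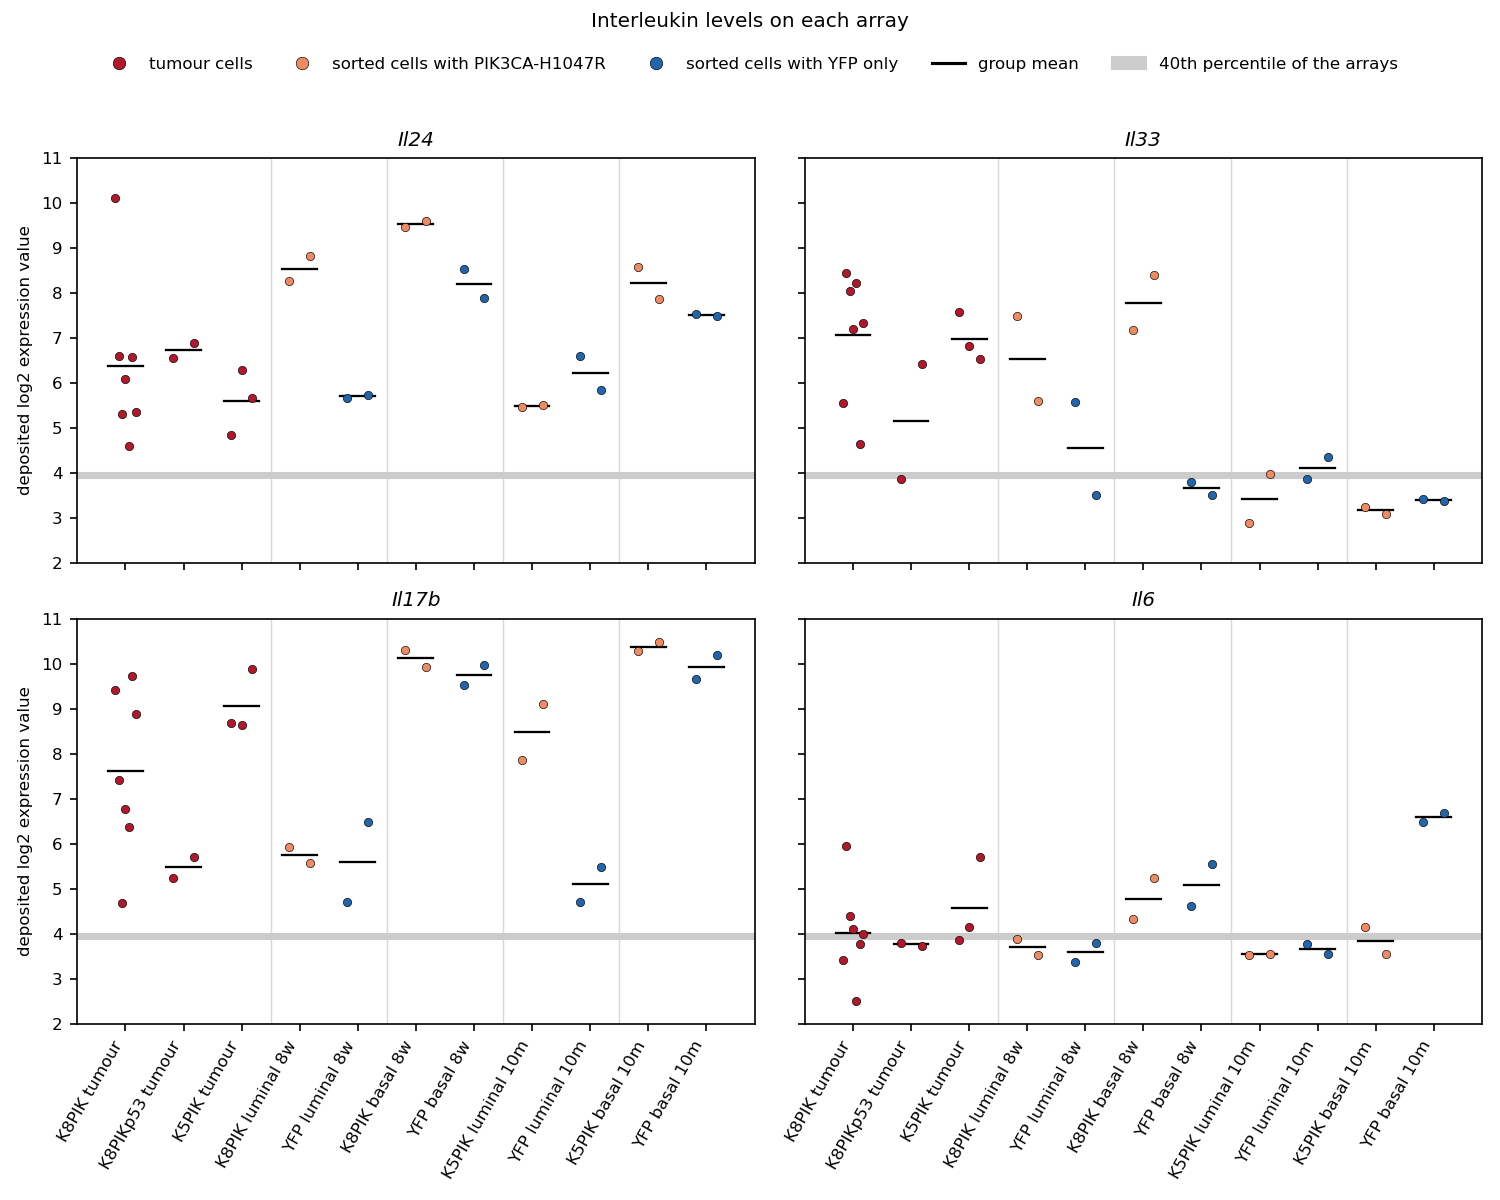
Deposited log2 expression values (vertical axes) of the 4 interleukins in the 11 groups (horizontal axes), with 1 point per array, a line at each group mean and a grey band at the 40th percentile of the arrays. By group mean Il24 is highest in K8PIK basal and luminal cells. It is also high in YFP and K5PIK basal cells, and a single K8PIK tumour has the highest value. Il33 is high in K8PIK luminal and basal cells and in most tumours. Il17b is high in basal cells, K5PIK luminal cells and some tumours, and Il6 in YFP basal cells at 10 months.

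By group mean, Il24 was highest in sorted K8PIK cells. It had log2 values of 8.27 and 8.81 in K8PIK luminal cells at 8 weeks, against 5.67 and 5.73 in YFP luminal cells at 8 weeks. Both K8PIK arrays lay far above both YFP arrays, and the difference of 2.84 ± 0.30 (SE, n = 2 each), a 7.17-fold change, is the one that chose the gene. For orientation, 0.144% of genes were called higher there and 18.3% had both K8PIK arrays above both YFP arrays. The mean of the basal marker list was 6.502 and 7.29 in K8PIK luminal cells, against 5.91 and 6.70 in YFP luminal cells at 8 weeks, and the groups overlapped. The K8PIK array with the higher Il24, 8.81, had the lower of the 2 basal means, but the order of 2 arrays carries no weight. The median difference over the list was 0.04, against -0.04 over all genes. Of its 9 genes, 2 were called higher and none lower, Krt5 by 2.81 with an adjusted p of 0.003 and its keratin partner Krt14 by 2.19 with 0.0101 (limma, n = 2 each). The part of these 2 keratins, and of the basal list as a whole, in the Il24 difference was not tested.

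In K8PIK basal cells Il24 had values of 9.47 and 9.61, against 8.53 and 7.88 in YFP basal cells at 8 weeks. The groups did not overlap, as for 25.6% of genes in that direction, and the difference was 1.33 ± 0.30 with an adjusted p of 0.0756 (limma, Benjamini-Hochberg over all genes, n = 2 each), so it did not pass the threshold of 0.05. Higher calls made up 0.335% of genes in that comparison.

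The K5PIK cells, taken only at 10 months, gave another picture. They differ from the K8PIK cells in both Cre line and time. Il24 had values of 5.46 and 5.51 in K5PIK luminal cells, against 6.59 and 5.85 in YFP luminal cells, with a difference of -0.74 ± 0.30 and an adjusted p of 0.162 (limma, n = 2 each). In K5PIK basal cells the values were 8.59 and 7.87, against 7.54 and 7.48 in YFP basal cells, with a difference of 0.72 ± 0.30 and an adjusted p of 0.112 (limma, n = 2 each). The arrays did not overlap in either comparison, but neither difference passed the test. All K5PIK arrays lay below all YFP arrays for 32.8% of genes in the luminal comparison and above them for 36.8% in the basal one.

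Il24 was higher in the basal than in the luminal gate at both times. At 8 weeks it was higher by 2.51 ± 0.30 in YFP and by 1.00 ± 0.30 in K8PIK cells (SE, n = 2 each), both with no test. At 10 months it was 1.29 ± 0.30 higher in YFP basal than in YFP luminal cells, with an adjusted p of 0.0041 (limma, n = 2 each), in a comparison where 17.6% of genes were called higher. K5PIK luminal cells, whose Cre acted in the basal layer, had Il24 lower by 2.74 ± 0.30 than K5PIK basal cells (difference -2.74, adjusted p = 3.4e-05, limma, n = 2 each), where 13.2% of genes were called lower. Against YFP basal cells at 10 months their difference was -2.02 ± 0.30, with an adjusted p of 0.00024 (limma, n = 2 each) and 18.8% of genes called lower. The first of these calls was lost without YFP luminal 10-month replicate 2, where the difference was 0.92 and the adjusted p 0.061 (limma), and all 3 were lost when the sorted and tumour arrays shared 1 estimate of the spread, with adjusted p of 0.371, 0.089 and 0.160 (limma). Between 10 months and 8 weeks, Il24 differed by -0.70 ± 0.30 in YFP basal cells, with an adjusted p of 0.216 (limma, n = 2 each).

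In tumours Il24 spread widely. The 7 K8PIK tumours had a lowest value of 4.60, a median of 6.09 and a highest of 10.11. The K8PIKp53 tumours had 6.56 and 6.90, and the K5PIK tumours 4.84, 6.29 and 5.66. The single K8PIK tumour at 10.11 exceeded every other array of the study, and the other 6 lay between 4.60 and 6.59. That tumour also had the highest mean of the basal markers among the K8PIK tumours, 9.19, where the 7 arrays ran from 6.503 to 9.19.

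All 3 K5PIK tumours lay below all 4 YFP basal arrays in Il24. The difference was -2.26 ± 0.79 (n = 3 and 4), with an adjusted p of 0.036 by limma. Lower calls made up 14.5% of genes there, and 16.4% had all tumour arrays below all normal arrays. Layer markers moved with it: the basal mean was 7.53 to 8.09 in K5PIK tumours, against 9.52 to 9.97 in YFP basal cells, and the luminal mean was 9.63 to 9.78 in K5PIK tumours, against 7.08 to 8.25 in YFP basal cells. Of 9 basal genes 6 were called lower and none higher, and of 9 luminal genes 7 were called higher and none lower, where 15.5% of all genes were called higher. Of 12 endothelial genes 7 were called lower and none higher. Their part in the Il24 difference was not tested. The call did not hold under other choices: against YFP basal cells at 8 weeks alone the difference was -2.61 with an adjusted p of 0.0752, and against those at 10 months alone -1.91 with 0.131 (limma). It was also lost when YFP basal 8-week replicate 1, YFP basal 10-month replicate 1 or 2, or K5PIK tumour replicate 1 or 3 was left out, with adjusted p of 0.0993, 0.0799, 0.0684, 0.142 and 0.0773 (limma). Against the K5PIK basal cells at 10 months the difference was -2.63 ± 0.95 with an adjusted p of 0.0601 (limma, n = 3 and 2). K8PIK tumours differed from YFP luminal cells at 10 months by 0.16 ± 0.83, with an adjusted p of 0.946 (limma, n = 7 and 2), and from K8PIK luminal cells at 8 weeks by -2.17 ± 0.83, which shares a group with the choice of the gene and has no test.

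Il33 was dim on most arrays of normal cells and well above the dim limit in K8PIK cells and most tumours. In K8PIK basal cells it had values of 7.17 and 8.40, against 3.81 and 3.52 in YFP basal cells at 8 weeks. Both YFP basal arrays were dim and both K8PIK basal arrays were far above the dim limit. The difference of 4.12 ± 0.67 (SE, n = 2 each), a 17.4-fold change, is the one that chose the gene. For orientation, 0.335% of genes were called higher there and 25.6% had both K8PIK arrays above both YFP arrays. The mean of the endothelial markers was 5.79 and 5.80 in K8PIK basal cells and 6.36 and 7.36 in YFP basal cells at 8 weeks. None of the 12 endothelial genes was called in either direction there, where only 0.418% of all genes were called. Among the luminal markers 1 of 9 was called higher, the luminal transcription factor Foxa1 (3.72, adjusted p = 0.0052, limma, n = 2 each). The part of the endothelial list and of Foxa1 in the Il33 difference was not tested.

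In K8PIK luminal cells Il33 had values of 7.49 and 5.60, against 5.57 and 3.52 in YFP luminal cells at 8 weeks. The arrays did not overlap, though the lower K8PIK array and the higher YFP array nearly met. The difference was 2.00 ± 0.67 with an adjusted p of 0.267 (limma, n = 2 each), and it did not pass the test. In the K5PIK cells at 10 months Il33 was not above the YFP cells. Il33 had 2.89 and 3.97 in K5PIK luminal cells against 3.87 and 4.36 in YFP luminal cells, with a difference of -0.68 ± 0.67 and an adjusted p of 0.589. It had 3.25 and 3.09 in K5PIK basal cells against 3.42 and 3.37 in YFP basal cells, with a difference of -0.23 ± 0.67 and an adjusted p of 0.845 (limma, n = 2 each).

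Il33 was high in most K8PIK tumours and in all K5PIK tumours. The 7 K8PIK tumours had a lowest value of 4.65, a median of 7.34 and a highest of 8.45, and 5 of the 7 exceeded all 4 YFP luminal arrays. Il33 rose by 2.74 ± 0.65 in K8PIK tumours relative to YFP luminal cells of both times, a 6.66-fold change with an adjusted p of 0.0119 (limma, n = 7 and 4). Higher calls made up 4.47% of genes in that comparison. Basal and fibroblast markers moved with it, with 5 of 9 basal and 4 of 9 fibroblast genes tested called higher and none lower, and their part in the Il33 difference was not tested. The call was lost against the 8-week YFP luminal cells alone, with 2.52 and an adjusted p of 0.124, without YFP luminal 8-week replicate 2, with 2.22 and 0.0756, and without YFP luminal 10-month replicate 1, with 2.61 and 0.061 (limma).

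The K5PIK tumours had Il33 values of 7.57, 6.82 and 6.54, against 3.25 and 3.09 in K5PIK basal cells at 10 months. Il33 rose by 3.81 ± 0.95, a 14.0-fold change with an adjusted p of 0.0092 (limma, n = 3 and 2). In that comparison 7.88% of genes were called higher, 9.4% were called lower and 22.8% had all tumour arrays above both basal arrays. Other markers moved in it too. The luminal mean was 9.63 to 9.78 in K5PIK tumours, against 7.56 and 7.89 in K5PIK basal cells, with 6 of 9 genes called higher and none lower. The basal mean was 7.53 to 8.09 in K5PIK tumours, against 9.81 and 10.05 in K5PIK basal cells, with 5 of 9 called lower and none higher. The pericyte mean was 6.41 to 7.84 in K5PIK tumours, against 5.35 and 5.54 in K5PIK basal cells, with 1 of 3 called higher. Their part in the Il33 difference was not tested. Without either K5PIK basal array the adjusted p was 0.0642 or 0.0663, with differences of 3.88 and 3.73 (limma). Against YFP basal cells at 10 months the difference was 3.58 ± 0.95 with an adjusted p of 0.0072 (limma, n = 3 and 2), where 16.6% of genes were called higher. The K8PIKp53 tumours had values of 3.86 and 6.43, 1 dim and 1 bright, and differed from YFP luminal cells by 0.82 ± 0.90 with an adjusted p of 0.545 (limma, n = 2 and 4).

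Tumour samples also differed from normal cells in fibroblast markers. Their mean over 10 genes was 5.07 to 8.31 in K8PIK tumours, 7.56 to 7.99 in K8PIKp53 tumours and 6.19 to 7.87 in K5PIK tumours, against 4.78 to 5.89 in YFP luminal and 6.02 to 6.72 in YFP basal cells. Within the 7 K8PIK tumours, the fibroblast list and Il33 had r = 0.26 (exact p = 0.597, rho = 0.36, exact p = 0.444, n = 7, adjusted p = 0.773 and 0.772), and r was 0.42 without the 2 tumours farthest from the median fibroblast mean.

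Il17b followed the basal layer. In basal cells it had values of 10.32 and 9.93 in K8PIK cells, against 9.53 and 9.97 in YFP cells at 8 weeks, and 10.28 and 10.48 in K5PIK cells, against 9.66 and 10.20 in YFP cells at 10 months. All 8 basal arrays thus lay within 9.53 to 10.48. In neither comparison did the oncogene-carrying basal cells pass the test: the differences were 0.38 ± 0.51 at 8 weeks, with an adjusted p of 0.789, and 0.45 ± 0.51 at 10 months, with an adjusted p of 0.576 (limma, n = 2 each).

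The gap between layers was large. Il17b was 4.15 ± 0.51 higher in YFP basal than in YFP luminal cells at 8 weeks, a 17.8-fold change with an adjusted p of 0.00013 (limma, n = 2 each), where 10.4% of genes were called higher. It was 4.37 ± 0.51 higher in K8PIK basal than in K8PIK luminal cells, with an adjusted p of 0.0001 (limma, n = 2 each) and 8.9% of genes called higher. K8PIK basal cells, whose Cre acted in luminal cells, exceeded YFP luminal cells at 8 weeks by 4.53 ± 0.51, a 23.0-fold change with an adjusted p of 5.0e-05 (limma, n = 2 each), where 11.6% of genes were called higher. K8PIK luminal cells, with 5.93 and 5.58, overlapped YFP luminal cells at 8 weeks, with 4.72 and 6.48, and differed by 0.15 ± 0.51 with an adjusted p of 0.949 (limma, n = 2 each).

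The exception among luminal cells was the K5PIK group. Il17b had values of 7.86 and 9.11 in K5PIK luminal cells, against 4.71 and 5.48 in YFP luminal cells at 10 months. Both arrays lay between the luminal and the basal ranges, and the difference of 3.39 ± 0.51 (SE, n = 2 each), a 10.5-fold change, is the one that chose the gene. Both K5PIK arrays lay above both YFP arrays for 20.4% of genes. Relative to the K5PIK basal cells Il17b was lower by 1.89 ± 0.51 (difference -1.89) and relative to YFP basal cells by 1.44 (difference -1.44), both with no test. The basal marker mean was likewise higher in these cells, at 6.85 and 6.97 against 5.70 and 5.96 in YFP luminal cells at 10 months. Of the 9 basal genes 4 were called higher and none lower, where 2.08% of all genes were called higher, the smooth muscle genes Myh11 (2.56, adjusted p = 0.0202) and Mylk (2.01, adjusted p = 0.0218) and the keratins Krt14 (1.40, adjusted p = 0.0212) and Krt5 (1.54, adjusted p = 0.0162, limma, n = 2 each). Their part in the Il17b difference was not tested.

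Among tumours Il17b ranged from the luminal to the basal level. The 7 K8PIK tumours had a lowest value of 4.68, a median of 7.41 and a highest of 9.72, and 5 of them exceeded all 4 YFP luminal arrays. The K8PIKp53 tumours had 5.25 and 5.71, within the range of YFP luminal cells, and the K5PIK tumours had 8.69, 8.64 and 9.89. K8PIK tumours differed from YFP luminal cells at 8 weeks by 2.01 ± 0.88 with an adjusted p of 0.258 and from K8PIK luminal cells by 1.86 ± 0.88 with an adjusted p of 0.262 (limma, n = 7 and 2). K5PIK tumours differed from YFP basal cells by -0.77 ± 0.84 with an adjusted p of 0.530 (limma, n = 3 and 4) and from K5PIK basal cells by -1.31 ± 1.01 with an adjusted p of 0.416 (limma, n = 3 and 2).

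Il6 was highest in YFP basal cells at 10 months. It was above the dim limit on all 4 YFP basal arrays, both K8PIK basal arrays, 1 K5PIK basal array, 4 K8PIK tumours and 2 K5PIK tumours. It had values of 6.49 and 6.69 in YFP basal cells at 10 months, against 4.62 and 5.55 in YFP basal cells at 8 weeks, a difference of 1.503 ± 0.34 (SE, n = 2 each). Both 10-month arrays lay above every other array of the study, and 23.4% of genes likewise had both 10-month arrays above both 8-week arrays. In YFP luminal cells the values were 3.79 and 3.55 at 10 months and 3.37 and 3.80 at 8 weeks, all 4 dim. The difference between the layers was 2.92 ± 0.34 at 10 months and 1.502 ± 0.34 at 8 weeks, with no overlap of the arrays, as for 32.2% and 25.5% of genes in that direction.

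K5PIK basal cells lacked this level. Il6 had values of 4.14 and 3.56 in K5PIK basal cells, against 6.49 and 6.69 in YFP basal cells at 10 months, so the groups were far apart. The difference was -2.74 ± 0.34 (SE, n = 2 each), a ratio of 0.15, in a comparison in which 8.02% of genes were called lower and 25.3% had both K5PIK arrays below both YFP arrays. In K8PIK basal cells the values were 4.33 and 5.24, against 4.62 and 5.55 in YFP basal cells at 8 weeks, and the arrays overlapped, with a difference of -0.30 ± 0.34. K8PIK luminal cells had 3.90 and 3.54 and K5PIK luminal cells 3.53 and 3.55, all dim.

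Endothelial and pericyte markers moved with Il6 between K5PIK and YFP basal cells. The pericyte mean over 3 genes was 5.35 and 5.54 in K5PIK basal cells, against 5.75 and 6.58 in YFP basal cells at 10 months. The endothelial mean over 12 genes was 4.57 and 5.53, against 6.07 and 7.06. Of the 12 endothelial genes, 6 were called lower there and none higher, where 8.02% of all genes were called lower. Their median difference was -1.45, against 0.09 over all genes tested. Between 10 months and 8 weeks, the arrays of YFP basal cells overlapped in this list: the mean was 6.07 and 7.06 at 10 months and 6.36 and 7.36 at 8 weeks, while Il6 was higher at 10 months on both arrays. Pecam1, an endothelial adhesion protein, was measured above the dim limit on all of these arrays. Ptprc, the pan-leukocyte CD45, was dim or close to the limit, but it is only 1 of 14 immune markers. From 8 to 12 of the 14 were above the limit on these arrays. The immune mean was 4.97 and 5.39 in K5PIK basal cells. In YFP basal cells it was 4.96 and 5.31 at 10 months and 4.92 and 5.19 at 8 weeks. Of the dissociation response genes, 6 of 10 were called higher in K5PIK basal cells and none lower, where 8.28% of all genes were called higher. The part of these lists in the Il6 difference was not tested.

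In tumours Il6 was close to the dim limit with single exceptions. The 7 K8PIK tumours had a lowest value of 2.505, a median of 4.00 and a highest of 5.96, the K8PIKp53 tumours had 3.80 and 3.73, and the K5PIK tumours had 3.87, 4.14 and 5.71. K5PIK tumours differed from YFP basal cells by -1.27 ± 0.54 (SE, n = 3 and 4). The K8PIK tumour at 5.96 had the highest immune marker mean of its group, 6.18, and also the highest fibroblast mean, 8.31.

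**Figure D2:**
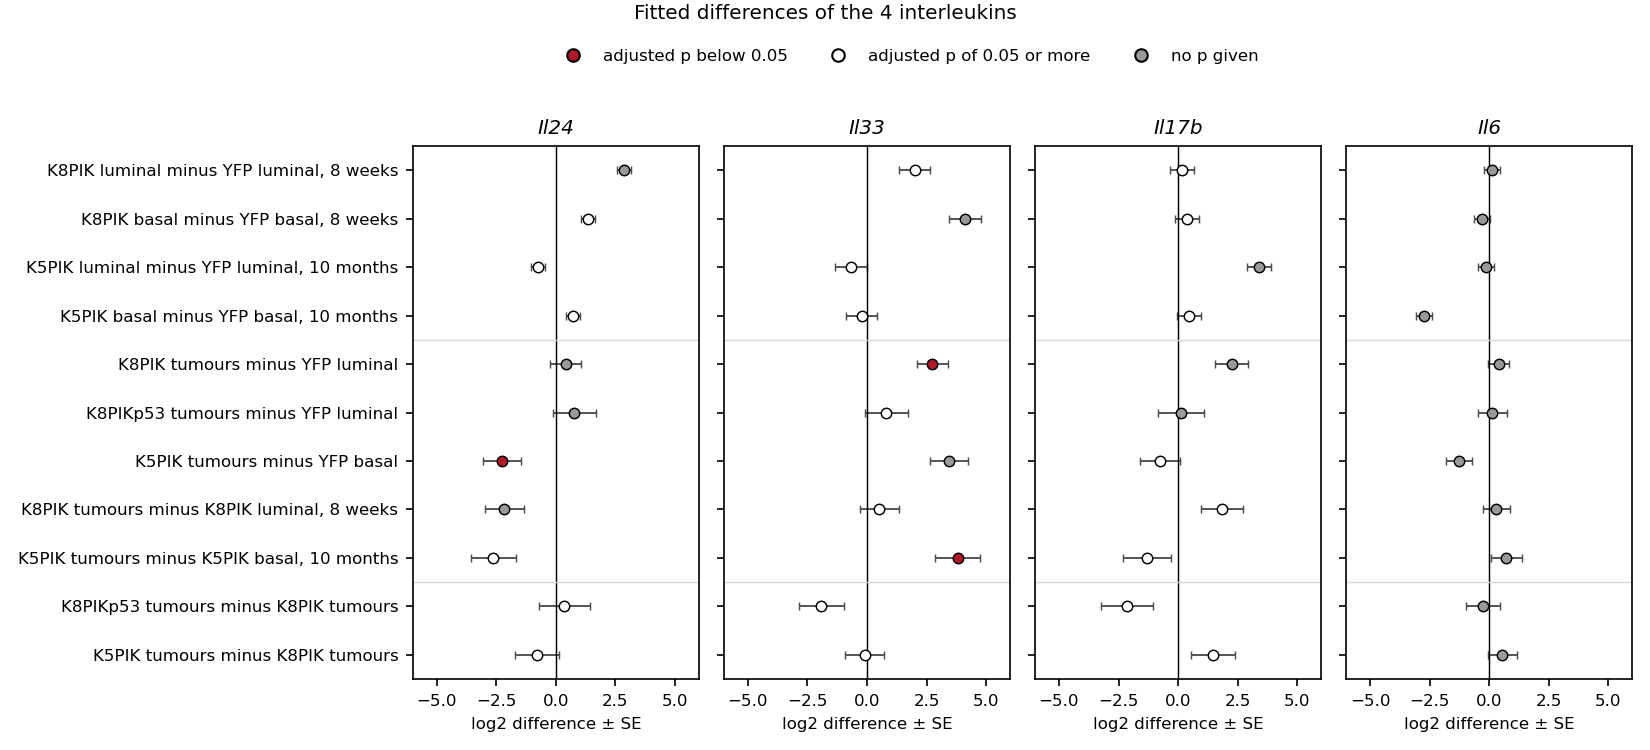
Fitted log2 differences with standard errors (horizontal axes) of the 4 interleukins for 11 comparisons (rows: oncogene-carrying against YFP cells, tumours against sorted cells, and tumours against each other). Red points had an adjusted p below 0.05 by limma, open points did not, and grey points have no test because the comparison, or 1 of its groups, served to choose the gene.

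None of the 3 genes with a test passed it between tumour types. Between K5PIK and K8PIK tumours Il24 differed by -0.78 ± 0.92 with an adjusted p of 0.791, Il33 by -0.09 ± 0.82 with 0.978 and Il17b by 1.46 ± 0.93 with 0.637 (limma, n = 3 and 7). Il6 differed by 0.55 ± 0.60. In this comparison limma called 0% of genes, while 1225 of 13244 had an unadjusted p under 0.05. Between K8PIKp53 and K8PIK tumours Il24 differed by 0.35 ± 1.07 with an adjusted p of 0.874, Il33 by -1.92 ± 0.95 with 0.289 and Il17b by -2.13 ± 1.09 with 0.30 (limma, n = 2 and 7), where 0.325% of genes were called. The K8PIK group itself was broad, with an SD over its 7 arrays of 1.80 for Il24, 1.44 for Il33, 1.83 for Il17b and 1.05 for Il6.

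Put in order by group mean, the 4 genes gave 4 orders. For Il24 the order began with K8PIK basal at 9.54, K8PIK luminal at 8.54, K5PIK basal at 8.23 and YFP basal at 8 weeks at 8.21, and ended with K5PIK tumours at 5.596 and K5PIK luminal cells at 5.48. K8PIK basal cells stood clear of K8PIK luminal cells, whereas the ranges of K8PIK luminal, K5PIK basal and YFP basal cells at 8 weeks overlapped from 1 neighbour to the next. For Il33 it began with K8PIK basal at 7.79, K8PIK tumours at 7.07, K5PIK tumours at 6.97 and K8PIK luminal at 6.54, all overlapping their neighbours, and ended with K5PIK basal cells at 3.17. For Il17b the 4 basal groups led, from K5PIK basal at 10.38 to YFP basal at 8 weeks at 9.75, each overlapping the next, and YFP luminal cells at 10 months came last at 5.10. For Il6 YFP basal cells at 10 months led at 6.59 with a gap of 1.503 to YFP basal cells at 8 weeks, and the last 6 groups lay between 3.54 and 3.85 with overlapping ranges.

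Across the 11 group means, the pairwise Pearson correlation of the members ran from -0.10 for Il33 with Il17b to 0.62 for Il17b with Il6, as a description of means that share arrays. The genes most like each member over the same 11 means, among 13662 compared, were different sets. For Il24 they were Lgals7 (r = 0.93), which encodes a galectin of stratified epithelia, Zfp703 (0.90), a zinc finger regulator, Krt16 (0.90), a stress keratin of epidermis, and Ptger4 (0.90), a prostaglandin E2 receptor. Their Spearman correlation with Il24 over the 28 arrays was 0.59 to 0.78.

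For Il33 the most similar genes were Ppp1r14c (r = 0.96), a phosphatase inhibitor, Grip1 (0.95), a scaffold protein, Hcar2 (0.94), the niacin receptor, and Adgra1 (0.87), an adhesion G protein-coupled receptor. Hcar2 also followed Il33 array by array, with a Spearman correlation of 0.86 over 28 arrays, whereas Grip1 had 0.31. Ppp1r14c was itself dim, with a mean over 28 arrays of 3.72. For Il17b they were Zhx3 (0.98), Mylk (0.97), the myosin light chain kinase, Myh11 (0.97), smooth muscle myosin, and Prelp (0.96), a matrix proteoglycan. Mylk and Myh11 are on the basal marker list, and 49 genes exceeded 0.9 for Il17b, against 1 for Il24, 3 for Il33 and 8 for Il6. For Il6 they were Adgrl4 (0.94), Foxa3 (0.94), Tek (0.93) and Rgs4 (0.93). Tek, the angiopoietin receptor, is on the endothelial list, Adgrl4 is an endothelial adhesion receptor, Rgs4 is a regulator of G protein signalling, and Adgrl4, Foxa3 and Tek were themselves dim, with means over 28 arrays of 3.50, 3.49 and 3.91.

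**Figure D3:**
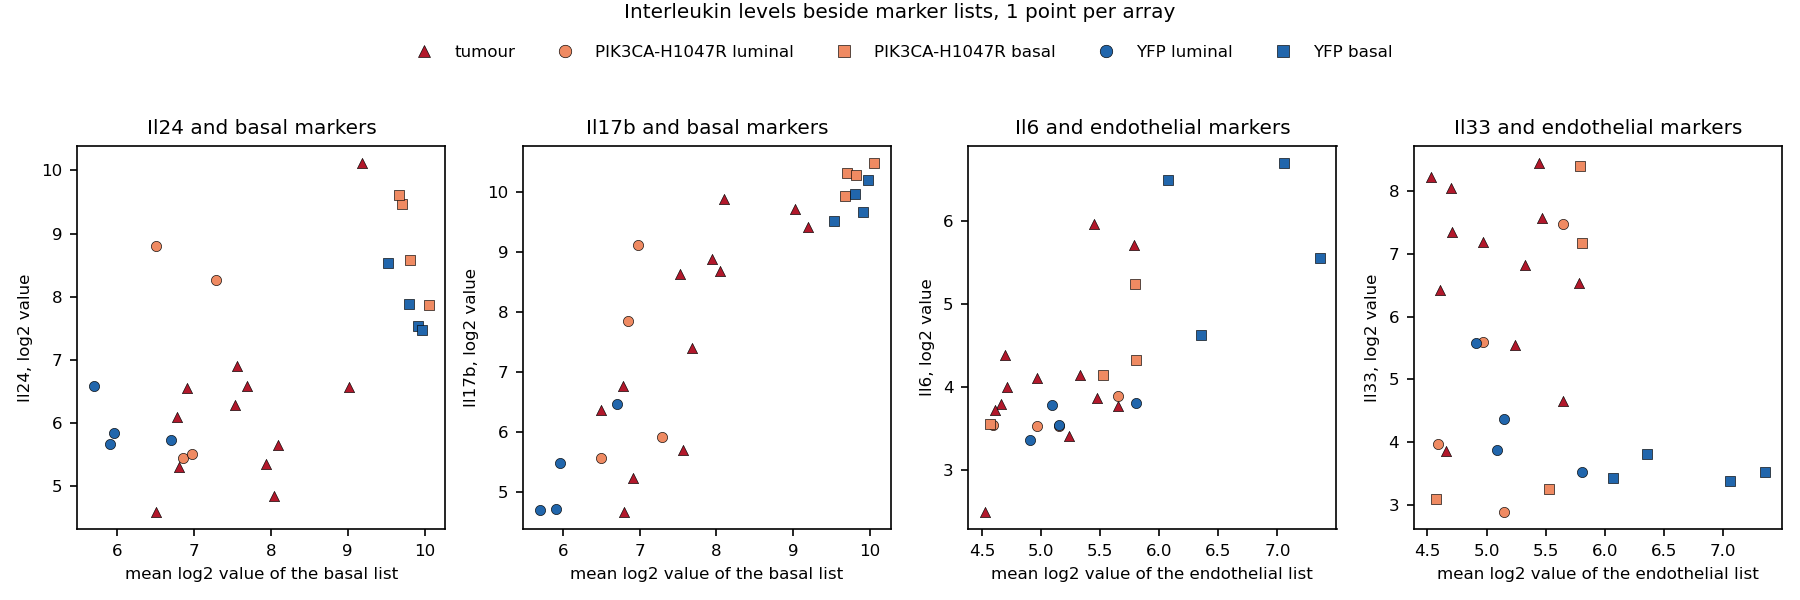
Log2 values of Il24 and Il17b against the mean of the basal marker list, and of Il6 and Il33 against the mean of the endothelial list (horizontal axes, mean log2 value), with 1 point per array for all 28 arrays. Il17b rises with the basal list, while the 2 K8PIK luminal arrays lie high in Il24 for their basal mean. The YFP basal arrays have high endothelial means, Il6 values from 4.62 to 6.69 and dim Il33. Among the YFP basal arrays, Il6 does not follow the order of the endothelial mean.

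Within the 7 K8PIK tumours the members were set against the 7 marker lists, 28 relations in all, with exact two-sided permutation tests over 5040 orders. None passed after Benjamini-Hochberg adjustment, the lowest adjusted p being 0.103. The strongest was Il17b with the basal list (Pearson r = 0.89, exact p = 0.010, Spearman rho = 0.86, exact p = 0.024, n = 7, adjusted p = 0.103 for r and 0.167 for rho), and r was 0.78 without the 2 tumours farthest from the median basal mean. Il24 with the basal list had r = 0.76 (exact p = 0.018, rho = 0.75, exact p = 0.066, n = 7), and r was 0.47 without the 2 farthest tumours. Il24 with the dissociation list had r = -0.84 (exact p = 0.011, rho = -0.86, exact p = 0.024, n = 7), and r was -0.45 without the 2 farthest tumours. Il33 had r = -0.83 with the basal list (exact p = 0.027, rho = -0.61, exact p = 0.167, n = 7), which was -0.11 without those tumours, so it rests on them. Il6 had r = 0.85 with the immune list (exact p = 0.018, rho = 0.86, exact p = 0.024, n = 7), which was 0.21 without the 2 farthest tumours and so rests on them too. For Il6, the fibroblast list had r = 0.82 (exact p = 0.018, rho = 0.75, exact p = 0.066, n = 7), or 0.40 without the 2 farthest tumours, and the pericyte list had r = 0.82 (exact p = 0.033, rho = 0.75, exact p = 0.066, n = 7), or -0.11 without them. Il24 with the endothelial list had r = 0.57 (exact p = 0.172, rho = 0.86, exact p = 0.024, n = 7), and r was 0.93 without the 2 farthest tumours. After adjustment over the family, p was 0.103 and 0.131 for the r of Il6 with the fibroblast and pericyte lists, and 0.481 for the r and 0.167 for the rho of Il24 with the endothelial list, so none of these passed.

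Of the receptor subunits, Il22ra1 and Il1rl1 were not analysed here, and Il20rb was dim on nearly all arrays and did not enter the fits. No receptor subunit was called in any of the 4 comparisons of oncogene-carrying with YFP cells of the same gate, in which 0.35%, 0.418%, 6.4% and 16.3% of genes were called (K8PIK luminal, K8PIK basal, K5PIK luminal and K5PIK basal). The largest of these differences was that of Il6ra, the ligand-binding chain for Il6, with 8.13 on average in K8PIK luminal cells against 9.28 in YFP luminal cells (-1.14, adjusted p = 0.141, limma, n = 2 each). Il1rap, the co-receptor for Il33, averaged 7.76 in K8PIK basal cells against 6.99 in YFP basal cells (0.76, adjusted p = 0.220, limma, n = 2 each).

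Between layers, Il20ra was higher in YFP basal than in YFP luminal cells by 0.67 at 8 weeks and 0.63 at 10 months, with adjusted p of 0.0254 and 0.0248, although its values stayed close to the dim limit. Il6st was higher in YFP basal cells at 10 months by 0.65 (adjusted p = 0.0139) and Il6ra lower by 0.82 (difference -0.82, adjusted p = 0.036, limma, n = 2 each). In K8PIK cells at 8 weeks, Il6ra was 0.97 higher in the basal than in the luminal gate, Il17rb 0.70 and Il6st 0.63, with adjusted p of 0.0334, 0.0423 and 0.0325 (limma, n = 2 each). Of all genes, 10.4% were called higher in YFP basal than in YFP luminal cells at 8 weeks. At 10 months 17.6% were called higher and 25.8% lower, and 8.9% were called higher in K8PIK basal than in K8PIK luminal cells. Where a receptor subunit was called in tumours against their normal layer, it was lower. There, 6.13% of all genes were called lower in K8PIK, 11.8% in K8PIKp53 and 14.5% in K5PIK tumours. The receptor calls are to be read against these shares. Il6ra fell by 1.098 in K8PIK and by 1.04 in K8PIKp53 tumours relative to YFP luminal cells, with adjusted p of 0.0061 and 0.025 (limma), and Il17ra fell by 0.69 in K8PIKp53 tumours, with 0.0441. Il20ra fell by 0.68 and Il6st by 0.89 in K5PIK tumours relative to YFP basal cells, with adjusted p of 0.0015 and 0.0091 (limma, n = 3 and 4).

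**Figure D4:**
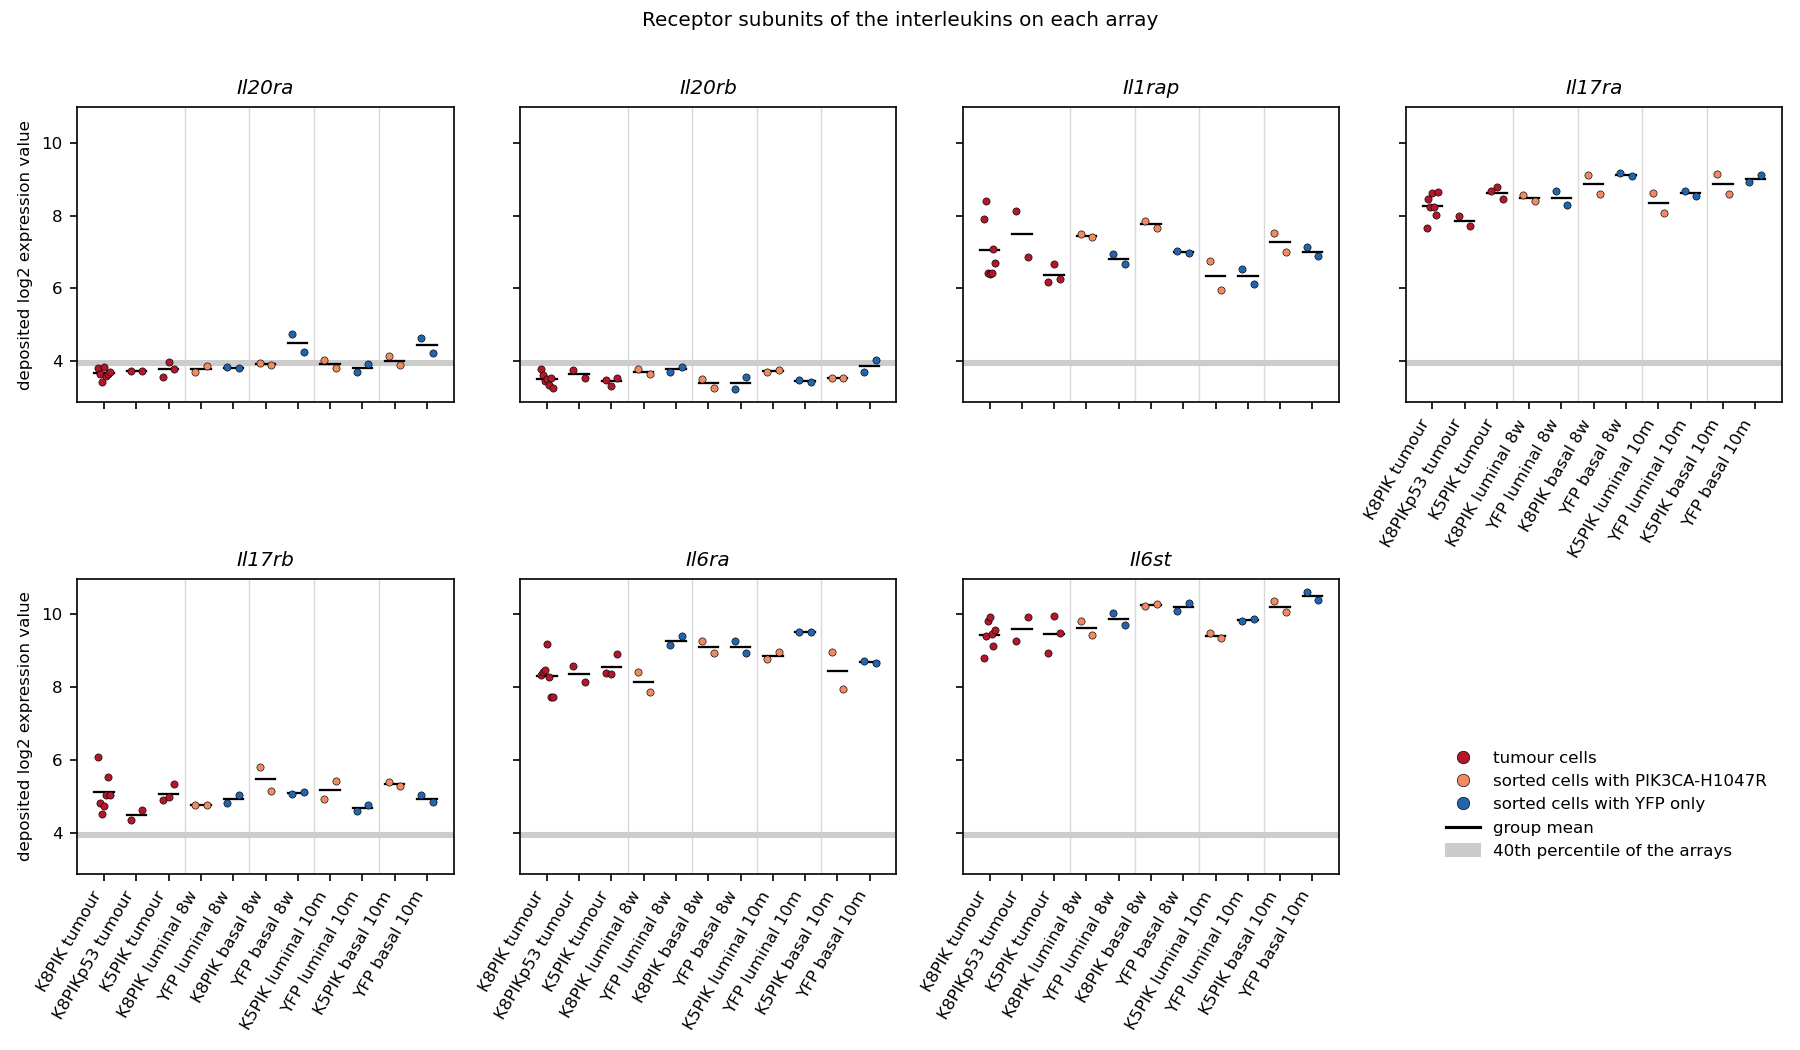
Deposited log2 expression values (vertical axes) of 7 receptor subunits in the 11 groups (horizontal axes), with 1 point per array, a line at each group mean and a grey band at the 40th percentile. Il20ra and Il20rb lie at the band, while Il1rap, Il17ra, Il17rb, Il6ra and Il6st lie above it in all groups.

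The signalling genes around the members were followed as 6 lists: the IL-20, IL-1, IL-17 and IL-6 families and the STAT3 and NF-kB responses. At 8 weeks no listed gene was called in K8PIK luminal or K8PIK basal cells, the comparisons in which Il24 and Il33 stood out. Only 0.35% and 0.418% of all genes were called there, so few or no calls in such lists say little. With the replicate number as a block, 1 NF-kB response gene was called in K8PIK luminal cells. In K5PIK basal cells at 10 months, where Il6 was low, the IL-6 family had 0 of 11 tested genes higher and 2 lower, with a median difference of -0.24 against 0.09 over all genes. Over all genes of that comparison 8.28% were called higher and 8.02% lower. Il11, another gp130 cytokine, fell by 1.57 with an adjusted p of 0.0208, and Jak2, a kinase of the same receptors, fell by 0.84 with 0.0247 (limma, n = 2 each).

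The NF-kB response had 0 of 15 genes higher and 3 lower in the same cells, with a median of -0.32. This count and those of the STAT3 and IL-17 lists in these cells stand beside 8.28% of all genes called higher and 8.02% lower. The 3 lower genes were the chemokine Cxcl1, which averaged 8.62 in K5PIK basal cells against 10.23 in YFP basal cells (-1.61, adjusted p = 0.0146), the feedback inhibitor Tnfaip3 (-1.25, adjusted p = 0.0265) and the NF-kB subunit Relb (-0.90, adjusted p = 0.0275, limma, n = 2 each). The STAT3 response had 1 of 14 higher, Junb, and 1 lower, Bcl3, with a median of 0.44. Junb, which averaged 9.599 in K5PIK basal cells against 8.31 in YFP basal cells (1.29, adjusted p = 0.0103, limma, n = 2 each), is an AP-1 gene that is also induced by tissue dissociation. In the IL-17 family 1 of 6 genes was higher, the receptor Il17re (1.23, adjusted p = 0.029, limma), and none lower. In K5PIK luminal cells, where Il17b stood out, no gene of the IL-17 family was called, and 2 of 15 IL-1 family genes were lower, Il18r1 (-1.67, adjusted p = 0.0202) and Il18rap (-0.93, adjusted p = 0.0191, limma, n = 2 each), both chains of the Il18 receptor. Of all genes 4.32% were called lower there. With the sorted and tumour arrays in 1 fit, no IL-1 family gene was called in K5PIK luminal against YFP luminal cells. In that fit no IL-6 family, IL-17 family or NF-kB response gene was called in K5PIK basal against YFP basal cells. Without YFP basal 10-month replicate 1, no NF-kB, STAT3, IL-1 or IL-17 gene of the lists was called there, and without replicate 2 no IL-6 family gene.

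The layers differed in many genes, with 17.6% of all genes called higher and 25.8% lower in YFP basal against YFP luminal cells at 10 months, and the counts that follow are to be read against these shares. In YFP basal against YFP luminal cells at 10 months, 6 of 11 IL-6 family genes were higher and 4 lower, with Il11 higher by 1.79 and Osmr, the oncostatin M receptor, by 1.11 (adjusted p = 0.0033 and 0.001, limma, n = 2 each). In the IL-1 family 1 of 15 was higher and 6 lower, led by Il18r1 at -3.09. The STAT3 response had 4 of 14 higher and 4 lower, the lower ones led by the acute phase gene Hp, with 6.21 on average in basal against 10.24 in luminal cells (-4.03, adjusted p = 0.00016, limma, n = 2 each). In the NF-kB response 2 of 15 were higher and 3 lower: Ptgs2, the inducible cyclooxygenase, was higher by 3.04 and Tnf lower by 2.44 (difference -2.44). Without YFP luminal 10-month replicate 1, 3 IL-6 family genes were called in place of 10.

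The tumour comparisons are read against the shares over all genes: 4.47% were called higher and 6.13% lower in K8PIK tumours against YFP luminal cells, 12.1% and 11.8% in K8PIKp53 tumours against YFP luminal cells, and 15.5% and 14.5% in K5PIK tumours against YFP basal cells. In K8PIK tumours against YFP luminal cells, where Il33 rose, the IL-1 family had 0 of 16 genes higher and 1 lower, Irak3, an inhibitor of the pathway (-1.06, adjusted p = 0.0075, limma, n = 7 and 4). In the NF-kB response 1 of 15 was higher and 2 lower, and the higher one was Ptgs2, which averaged 7.25 in K8PIK tumours against 4.07 in YFP luminal cells (3.18, adjusted p = 0.0013, limma). In the STAT3 response 2 of 14 were higher and 1 lower, with Socs3, a feedback inhibitor of gp130 signalling, higher by 1.35 (adjusted p = 0.0097, limma). K8PIKp53 tumours had Ptgs2 higher by 4.23 (adjusted p = 0.0008, limma, n = 2 and 4), Il1b by 1.65 (0.0489) and the acute phase gene Saa3 by 3.02 (0.0152), and 5 of 11 IL-6 family genes lower with none higher. Against the 8-week YFP luminal cells alone, no NF-kB response gene and no IL-1 family gene was called in K8PIK tumours. With only 1 K8PIKp53 tumour in the fit, 1 IL-6 family gene was called without replicate 1.

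In K5PIK tumours against YFP basal cells, 3 of 16 IL-1 family genes were higher and none lower, a share near that over all genes. They were Il18r1, Sigirr and Irak2, with differences of 3.15, 1.45 and 1.22 (adjusted p = 0.0008, 0.0006 and 0.0042, limma, n = 3 and 4). In the IL-6 family 2 of 11 were higher and 3 lower. Lif, a gp130 cytokine, was higher by 1.36 (adjusted p = 0.0181) and its receptor Lifr lower by 2.13 (difference -2.13, adjusted p = 5.3e-05, limma). Hp, the acute phase gene that was low in basal cells, was higher by 3.37 (adjusted p = 0.0015, limma), and Tnf by 2.06 (0.0023).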

How the data were processed

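RNA of 28 flow-sorted samples in 11 groups was hybridised to Affymetrix arrays. The deposited table holds the authors' log2 values of 45141 probe sets. The submitters' processing notes name R 2.14.0. Background correction, normalization and genome build are not given in the sources used here. Array medians ran from 4.40 to 4.50, and no further scaling was applied. Of the probe sets, 28898 carried 1 gene symbol, 551 carried several and were left out, and 15692 had none. Where a gene had several probe sets, the one of highest average level stood for it, which gave 17097 genes.

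Group means and their differences were estimated by limma (version 3.58.1, R 4.3.3) over 16 sorted arrays (13150 genes), 12 tumour arrays (13244) or all 28 (13663). Genes had to exceed the array's 40th percentile on at least 2 arrays of the fit. P-values were adjusted by Benjamini-Hochberg over all genes and called under 0.05. Tumours were set against the mean of both times of YFP cells unless 1 time is named. The fits were tested on simulated data. The number of arrays limits the precision. The members, marker lists and pathway lists were chosen with earlier results of these data known. Named genes were the members, their receptor subunits, up to 4 called genes per list and comparison with the largest differences, and the 4 genes most correlated with each member. Alternatives were the filter, the probe set rule, quantile normalization, a trended robust prior, 1 fit over all arrays, the reference time, the replicate number as a block and leaving out each array. The correlations within K8PIK tumours were added after the data had been seen.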

Additional observations from a re-analysis of the deposited data

Results flagged for a closer look

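Il24 in 1 K8PIK tumour, with a log2 value of 10.11, lay far from the other 6, which ran from 4.60 to 6.59. The gap was 0.638 of the group's range. The limit for listing a gap here is one that about 1 in 20 groups pass by chance. Without that tumour, the Il24 difference between K8PIK tumours and YFP luminal cells was -0.21, against 0.42 with it. Between K5PIK and K8PIK tumours it was -0.16 without it and -0.78 with it. Between K8PIKp53 and K8PIK tumours it was 0.98 without it and 0.35 with it.

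The other results listed here are pairs of comparisons in which all arrays moved one way in the first and the opposite way in the second. The difference was not tested in any of them, and the share of all genes with such opposite moves was not counted. Between K8PIK and K5PIK effects, Cre line and time cannot be told apart. Il24 was higher in K8PIK luminal cells at 8 weeks and lower in K5PIK luminal cells at 10 months, each against YFP luminal cells, a difference between the effects of 3.58. The K8PIK luminal effect is the one that chose Il24, so the size of this gap follows in part from the choice. The same K5PIK luminal effect differed from the effect in K8PIK basal cells by 2.07 and from that in K5PIK basal cells by 1.46. Il24 was higher at 10 months than at 8 weeks in YFP luminal cells and lower in YFP basal cells, a difference of 1.22. Il33 was higher in K8PIK luminal and K8PIK basal cells than in YFP cells and slightly lower, among dim values, in K5PIK basal cells, with differences of 2.22 and 4.35. The K8PIK basal effect is the one that chose Il33, so the gap of 4.35 follows in part from the choice.

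Among receptor subunits the differences were smaller. The Il20rb effect in K5PIK luminal cells differed from that in K5PIK basal cells by 0.60, and its change with time in YFP basal cells from that in YFP luminal cells by 0.77, which is also the difference between its layer effects at 10 months and at 8 weeks. These are dim values. Il17rb was lower in K8PIK luminal cells than in YFP luminal cells, and this effect was exceeded by that in K8PIK basal cells by 0.54, in K5PIK luminal cells by 0.65 and in K5PIK basal cells by 0.56. Il6ra changed with time in opposite directions in YFP luminal and YFP basal cells, a difference of 0.65.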

How the results depend on the processing

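Most groups hold 2 arrays, and Il33 and Il6 were dim in many, which limits their ratios. Using every other probe set of a member was not possible, since each has 1. Changing the filter, averaging probe sets or a trended robust prior cannot change a member's difference, so these settings bear only on the calls. None of them ended a member's call. Quantile normalization turned the Il33 difference between K5PIK and K8PIK tumours to 0.00803, against -0.09 as reported.

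Replicate numbers were not taken as pairs. Deviations of same-numbered samples correlated at -0.09 to 0.38 over the comparisons, with at most 3 pairs in each. In groups of 2 arrays both replicates give the same value by construction. Between K5PIK luminal and K5PIK basal cells it was 0.36, so the check cannot exclude pairing. With the replicate block, the Il24 difference was -1.098 between K8PIKp53 and K8PIK tumours, 1.87 between K8PIK tumours and YFP luminal cells, and -1.77 between K5PIK tumours and YFP basal cells (adjusted p = 0.0677, limma). That last difference was -2.61 against the 8-week and -1.91 against the 10-month reference alone, and Il33 in K8PIK tumours was 2.52 against the 8-week reference, none past the threshold.

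Leaving out 1 array in turn gave these ranges. Il17b ran from -0.73 to 1.03 in K8PIK luminal against YFP luminal cells, from 2.76 to 4.01 in K5PIK luminal against YFP luminal cells, and from -0.0862 to 0.45 in YFP basal cells between 10 months and 8 weeks. Il6 in K8PIK basal against YFP basal cells ran from -0.77 to 0.16. Il33 in K5PIK luminal cells ran from -0.51 to 0.57 against YFP basal and from -0.28 to 0.80 against K5PIK basal cells, and in YFP luminal cells from -1.46 to 0.60 between the times. Il33 ran from -0.49 to 0.14 between K5PIK and K8PIK tumours, from 2.22 to 3.25 in K8PIK tumours and from -0.47 to 2.10 in K8PIKp53 tumours against YFP luminal cells, and from -0.42 to 1.47 in K8PIK tumours against K8PIK luminal cells. Il24 in K5PIK tumours against YFP basal cells ran from -2.61 to -1.88.

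Leaving out 1 array moved the count of called genes to 6 to 58 (46 as reported) for K8PIK luminal, 0 to 46 (55) for K8PIK basal, 119 to 1338 (841) for K5PIK luminal and 343 to 1952 (2143) for K5PIK basal cells against YFP cells, 457 to 1786 (1448) for K8PIK tumours against YFP luminal cells and 8 to 1027 (43) for K8PIKp53 against K8PIK tumours. A lone array was assumed to vary like the other groups, and the cause of these shifts was not tested. In 1 fit over all 28 arrays they were 4 (46 as reported) for K8PIK luminal, 3 (55) for K8PIK basal, 100 (841) for K5PIK luminal and 1045 (2143) for K5PIK basal against YFP cells, 2319 (3987) for YFP basal against luminal at 8 weeks, 2405 (3780) for K8PIK basal against YFP luminal, 1232 (2558) between K8PIK and 1764 (3097) between K5PIK layers, and 1158 (43) for K8PIKp53 against K8PIK tumours. The replicate block gave 70 and 112 for K8PIK luminal and basal cells, 150 (0) for K5PIK and 2 for K8PIKp53 against K8PIK tumours, and 2513 (1448) and 1215 (341) for K8PIK tumours against YFP luminal and K8PIK luminal cells. For K8PIKp53 against K8PIK tumours, quantile normalization gave 25 and the trended robust prior 23. With the 8-week reference alone the counts were 304 (1448), 2033 (3278) and 1675 (4102) for K8PIK, K8PIKp53 and K5PIK tumours, and with the 10-month reference 611 for K8PIK tumours.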
